A study of Bos indicus and Bos indicus x Bos taurus and Bos taurus with 6 samples.

Results

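Whole blood from Kedah-Kelantan cows was compared with whole blood from Holstein Friesian cows by RNA sequencing, gene by gene across the transcriptome. The comparison used 4 of the 6 libraries in the series, 2 for each breed, and kept every gene whose 2 Kedah-Kelantan libraries lay on the same side of both Holstein Friesian libraries. Of 13455 genes with enough reads to test, out of 21698 in the deposited table, 4131 met that rule. Kedah-Kelantan is labelled Bos indicus, an indigenous breed of the tropics called heat-tolerant, and Holstein Friesian is labelled Bos taurus, a temperate breed called heat-vulnerable. The other 2 libraries came from Brangus, a composite breed that the labels place between the others in heat tolerance. They entered the fit that estimates the spread and are given beside the results.

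All cows were adult females, neither pregnant nor lactating, with a stated mean age of 4.5 ± 1.2 years and a mean body weight of 450 ± 15 kg, the same figures for each breed. They were kept at 1 university farm in Malaysia, and jugular blood was taken at peak heat load with a temperature-humidity index of 44.68 (formula not given in the sources used here). No group was sampled without heat load, so a difference that the breeds always carry and a difference in how they respond to heat cannot be told apart. The design text names 4 animals per breed while each breed has 2 libraries labelled as biological replicates. How animals map to libraries is not stated, and p-values measure the spread between these libraries. With 2 libraries against 2, an exact two-sided permutation test of a single gene cannot go below p = 0.333, so the positions of the libraries are a description and the test is the edgeR fit across all genes.

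Blood RNA comes mostly from white cells, with globin messenger RNA from young red cells and a smaller share from platelets. A level in such a sample depends on how many cells of each type were drawn as well as on how much RNA each cell holds, and in bulk samples fewer cells of a type and less RNA per cell cannot be told apart. Indicine and taurine cattle descend from separate domestications of the aurochs. Their major histocompatibility complex (in cattle called BoLA) and natural killer receptor loci are known for alleles and gene copies that differ between animals. Reads of such genes can be split between near-identical copies or lost against a reference that holds another allele. How the authors' counting treated reads with several matches, and whether it used strand, is not given in the sources used here, so values of gene copies and multigene families are uncertain.

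Total counts ran from 25275377 to 28668857 reads over the 6 libraries, and levels are given as counts per 1000000 (CPM) on library sizes scaled by the trimmed mean of M-values (TMM). The Kedah-Kelantan libraries were much closer to each other than the Holstein Friesian libraries were. The median absolute log2 difference between replicates was 0.15 in Kedah-Kelantan and 0.55 in Holstein Friesian, and 70 genes (0.52%) differed at least 2-fold between the Kedah-Kelantan libraries against 3704 (27.5%) between the Holstein Friesian libraries. Both pairs differed by more than read sampling, with a chi-square per degree of freedom of 17.9 and 498. Several cell marker sums followed the same split. Summed monocyte markers (22 genes) were at 1126 CPM in Holstein Friesian 1 and 9728 CPM in Holstein Friesian 2, against 2423 and 2639 CPM in Kedah-Kelantan. Summed neutrophil markers (28 genes, with MMP8 at 0 in every library) were at 1495 and 9876 CPM against 3337 and 3567 CPM. Summed B and plasma cell markers (27 genes) went the other way between the Holstein Friesian libraries, at 5542 and 1073 CPM against 3624 and 3813 CPM. Summed T cell markers (26 genes) did not follow the split, at 5093 and 5343 CPM against 4536 and 4884 CPM. The leukocyte marker PTPRC was high in all 6 libraries, at 2125 and 2012, 2391 and 2678 and 1850.0 and 1830.5 CPM in Kedah-Kelantan, Holstein Friesian and Brangus. Beta-globin HBB was present at 144 and 181, 95 and 229 and 438 and 635 CPM in the same order, while the alpha-globin entry HBA had at most 44 reads in any library and HBA1 had none.

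Both Kedah-Kelantan libraries lay above both Holstein Friesian libraries for 2433 genes (18.1% of those tested) and below them for 1698 genes (12.6%). For 5982 genes (44.5%) the Kedah-Kelantan values fell between the 2 Holstein Friesian values. Many of the separated genes were separated by little: the nearest libraries of the breeds were less than 0.1 apart on the log2(CPM + 0.5) scale for 741 genes above and 647 below. This distance between the nearest libraries is called the gap in what follows. A gap of at least 2-fold (1 on the log2 scale) was reached by 131 genes above (0.974%) and 55 below (0.409%), and a gap of at least 4-fold by 23 and 16. At the edge of the rule, ERP44 was just inside with 97.6 and 109.7 CPM against 109.8 and 124.1 CPM, and MGAT2 with 55.8 and 60.999 CPM against 61.003 and 75.7 CPM. WDR82, at 208.2 and 209.42 against 216 and 209.401 CPM, and THOC5, at 43.9911 and 43.6 against 43.9907 and 49.3 CPM, were just outside.

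The split depended on how libraries were scaled. Scaling by total counts alone put 3853 genes above and 829 below (28.6% and 6.16% of tested genes; 82.3% of separated genes above, against 58.9% with TMM), and moved the median log2 difference of all genes from -0.03 to 0.12. With a mean count of at least 50 as the filter and TMM scaling, 1640 genes were above and 1757 below (48.3% of separated genes above), so the majority turned. The balance of genes at least 2-fold apart turned with 1 library: 800 were above and 1135 below without Holstein Friesian 1, and 1167 above and 348 below without Holstein Friesian 2. With total counts all 2433 genes above with TMM stayed above, and 829 of the 1698 below stayed below. This outcome was fixed by the scaling and is no sign of robustness. Dropping TMM raises both Kedah-Kelantan libraries relative to both Holstein Friesian libraries. Genes above can then only stay or gain in number, and genes below only stay or drop in number, in every gene list as well. The edgeR quasi-likelihood test called 1 gene (0.00743% of those tested) at a Benjamini-Hochberg adjusted p under 0.05, and 543 genes had an unadjusted p under 0.05. DESeq2 called 130 genes on the same counts, 65 in each direction, and each of them had non-overlapping libraries. The edgeR call was lost without either Kedah-Kelantan library or either Brangus library, and edgeR called 2464 genes without Holstein Friesian 1 and 1669 without Holstein Friesian 2. With so few calls, the results that follow describe where the libraries lie, and "above" or "below" names the position of both Kedah-Kelantan libraries against both Holstein Friesian libraries.

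**Figure D1:**
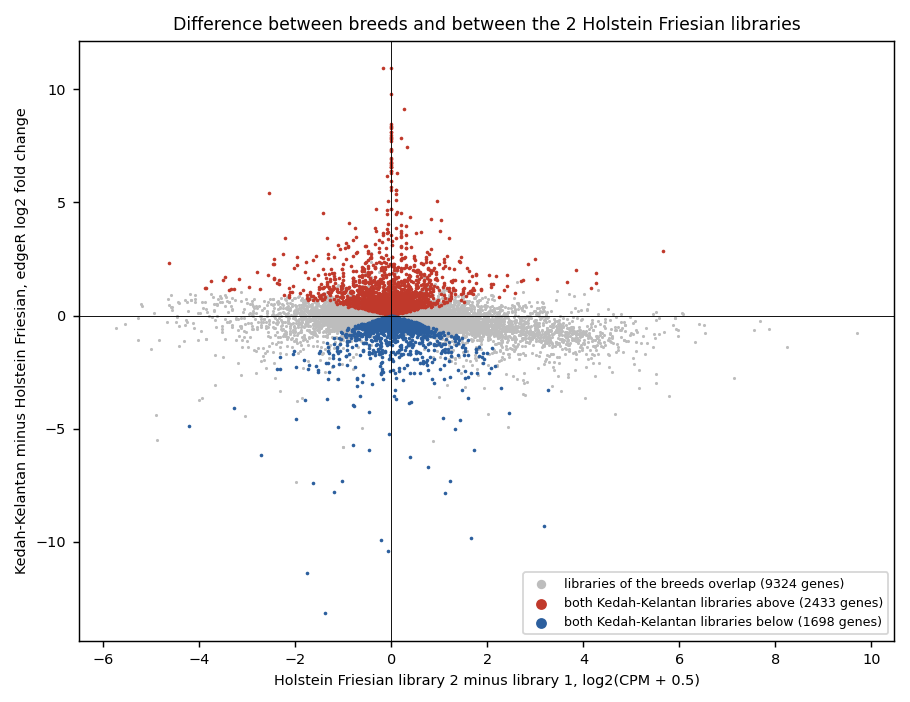
Each point is 1 of 13455 genes. The horizontal axis is the log2(CPM + 0.5) difference between the 2 Holstein Friesian libraries and the vertical axis is the edgeR log2 fold change of Kedah-Kelantan over Holstein Friesian, with the 2433 genes above in red, the 1698 below in blue and the 9324 with overlapping libraries in grey; the cloud is wider along the horizontal axis than along the vertical axis.

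Of the 4 widest gaps, 3 lay in the class II region of the major histocompatibility complex on chromosome 23. Class II molecules are pairs of an alpha and a beta chain that present peptides to helper T cells, and DQ is 1 of the classical pairs in cattle. BOLA-DQA2, a DQ alpha chain gene (chromosome 23, 25583031 to 25589201 in the deposited positions), had 2212 and 2628 reads in Kedah-Kelantan and 2 and 0 in Holstein Friesian. Read ratios over both libraries put it 2195-fold higher in Kedah-Kelantan, with a 95% interval for counting error only of 607 to 18133. BOLA-DQA5, another DQ alpha chain gene (25631958 to 25643878), showed the opposite, with 0.0644 and 0.162 CPM in Kedah-Kelantan and 484 and 142 CPM in Holstein Friesian. BOLA-DQB, the DQ beta chain gene between them (25607507 to 25620857), had 2 and 0 reads in Kedah-Kelantan and 14514 and 4882 in Holstein Friesian, a read ratio of 10690 (95% interval 2959 to 88279). Presence and absence of these 3 genes also split the Brangus pair. Brangus 1 had 0, 0.128 and 0.257 CPM of BOLA-DQA2, BOLA-DQA5 and BOLA-DQB, and Brangus 2 had 63.8, 152 and 281 CPM. BOLA-DRA, the alpha chain of the DR pair and far less variable than the DQ chains, was read in all libraries, at 2757 and 3177 CPM in Kedah-Kelantan and 4212 and 2172 CPM in Holstein Friesian. CIITA, the transactivator that class II genes depend on, was at 207 and 202 and 286 and 83.6 CPM. Kedah-Kelantan lay between the Holstein Friesian libraries for both. It did so for 10 of the 19 tested class II genes (52.6%, against 44.5% of all genes). Of the rest, BOLA-DQA2 and BOLA-DRB3 were above, and BOLA-DQA5, BOLA-DQB, BOLA-DMB and IFI30 below.

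DQ genes were part of a small set read in 1 breed and close to absent in the other. By the rule of at most 3 reads in each library of 1 breed and at least 1 CPM in both libraries of the other, 13 genes were near-absent in Holstein Friesian and 5 in Kedah-Kelantan. On the Kedah-Kelantan side, SV2C, a membrane protein of secretory vesicles, had 304 and 267 reads against 0 and 2. SCN1A, a voltage-gated sodium channel, had 137 and 110 reads against 0 and 0, and SYT9, a calcium sensor of vesicle release, had 48 and 51 against 0 and 0. CDH2, the adhesion protein N-cadherin, had 63 and 35 reads against 1 and 0. Set against the 3 reads that a count of 0 allows over both libraries, SCN1A was at least 74.7-fold higher and SYT9 at least 29.9-fold higher in Kedah-Kelantan. LOC617224, described as a probable palmitoyltransferase of the ZDHHC11B kind, had 284 and 264 reads against none, at least 166-fold higher. Brangus held reads of it in both libraries, at 3.68 and 8.08 CPM. On the Holstein Friesian side, SYT4, a relative of SYT9, had 51 and 171 reads against 0 and 0 in Kedah-Kelantan, at least 81.6-fold lower there. LOC522763, an uncharacterized locus on chromosome 21, had 188 and 158 reads against none, at least 127-fold lower in Kedah-Kelantan. Also on chromosome 21, 2 loci described as myeloid-associated differentiation markers were read in opposite breeds: LOC512617 had 56 and 37 reads in Kedah-Kelantan and none in Holstein Friesian, and LOC100298453 had 0 and 3 against 62 and 52.

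**Figure D2:**
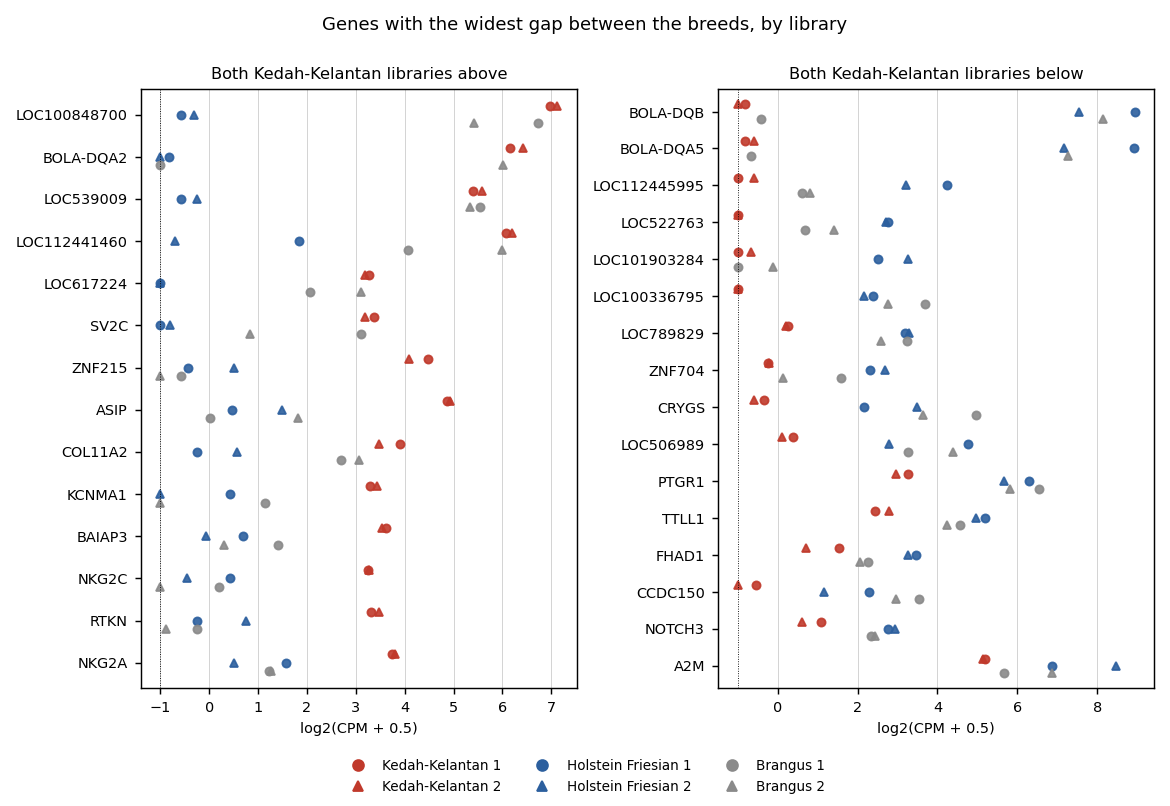
Levels on the log2(CPM + 0.5) scale in each library (circles, library 1; triangles, library 2; Kedah-Kelantan red, Holstein Friesian blue, Brangus grey) for the genes with the widest gaps above (left) and below (right), by all symbols and by symbols with a gene name. The dotted line marks 0 reads. Brangus sits with Kedah-Kelantan for LOC539009 and with Holstein Friesian for PTGR1, and its 2 libraries part for the 3 DQ genes.

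Several of the widest gaps were in loci that the annotation describes as a copy of another gene, and for these the copy and the gene it is named after were set side by side. The only gene that edgeR called was LOC539009 (chromosome 8, 71366038 to 71367420), described as RRAGA, the Rag GTPase that carries amino acid signals to the growth kinase complex mTORC1. It was at 41.4 and 47.5 CPM in Kedah-Kelantan, 0.168 and 0.342 CPM in Holstein Friesian and 45.9 and 40.0 CPM in Brangus, with a log2 fold change of 7.44 ± 0.39 (SE) and an edgeR adjusted p of 0.0455. Its log2 fold change lay between 7.00 and 7.97 in every alternative, while its adjusted p ran from 1.2e-52 (DESeq2) to 0.673 (edgeR without Kedah-Kelantan 2). RRAGA itself, elsewhere on chromosome 8 (25185781 to 25187367), was the reverse, at 34.4 and 40.6 CPM against 89.2 and 88 CPM, with 42.2 and 38.1 CPM in Brangus. Added together the pair came to 81.9 ± 8.66 CPM in Kedah-Kelantan and 88.8 ± 0.737 CPM in Holstein Friesian (SD, n = 2 each), a log2 ratio of -0.12. Thus the sum differed far less than either entry.

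The other pairs differed among themselves. For LOC789829, described as sorting nexin 5, the copy was at 0.708 and 0.65 CPM against 8.62 and 9.2 CPM, and it added little to SNX5 at 102 and 111 against 138 and 80.6 CPM, where the breeds overlapped. LOC101903284, named after the Golgi protein GOLPH3, was likewise small beside GOLPH3, at 0 and 0.13 against 5.17 and 9.05 CPM beside 122 and 137 against 127 and 159 CPM. For LOC506989, described as MRPL17 of the mitochondrial ribosome, copy and gene were both below, at 0.805 and 0.585 against 26.6 and 6.39 CPM and 21.2 and 23.3 against 26.3 and 31.5 CPM. Their sum was 22.9 ± 1.33 CPM in Kedah-Kelantan and 45.4 ± 10.6 CPM in Holstein Friesian (SD, n = 2 each). TRIM5, which restricts retroviruses, was below at 53.6 and 53.9 against 100.1 and 97.6 CPM, while its copy LOC786870 was above at 10.7 and 7.54 against 1.51 and 1.37 CPM. LOC100337044, named after the myeloid receptor ADGRE3, was above at 109 and 109 against 27.4 and 10.6 CPM. ADGRE3 itself differed more between the Holstein Friesian libraries than between breeds, at 189.9 and 198 against 42.2 and 553 CPM.

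**Figure D3:**
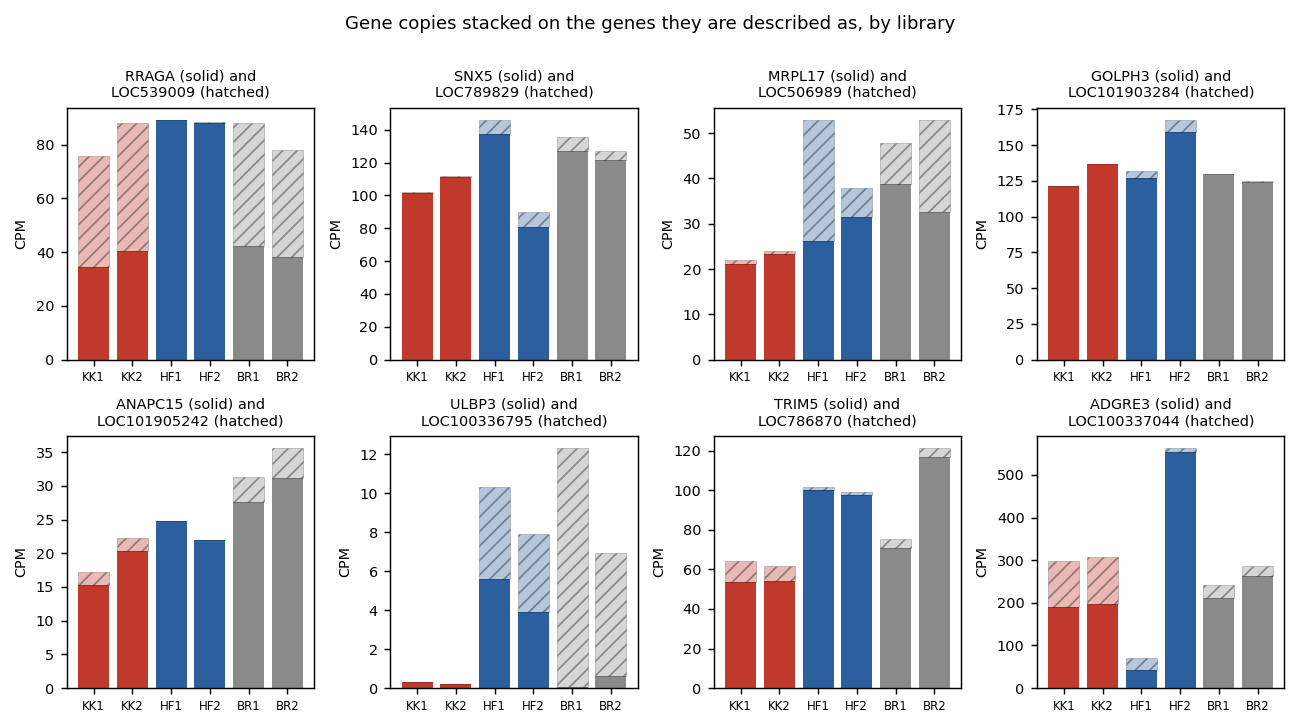
CPM of 8 genes (solid) with the locus described as their copy stacked on top (hatched), in each library (KK, Kedah-Kelantan; HF, Holstein Friesian; BR, Brangus). The RRAGA bars reach similar heights in all libraries although the copy makes up a visible part only in Kedah-Kelantan and Brangus, while ULBP3 and its copy are both close to 0 in Kedah-Kelantan.

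Symbols that begin with LOC, which mark loci without an assigned gene name, made up 6.9% of tested genes, 26.7% of genes above by at least 2-fold and 32.7% of genes below by at least 2-fold. A large family of such loci is described as ABCC4, a transporter that exports organic anions and cyclic nucleotides from cells. Of its 28 tested members, 10 were above (35.7%, against 18.1% of all genes), 3 below (10.7%, against 12.6%) and 13 between the Holstein Friesian libraries (46.4%, against 44.5%). Compared with Holstein Friesian 1 alone 24 were above and 3 below, and against Holstein Friesian 2 alone 10 and 16. LOC100848700 was at 125 and 139 CPM in Kedah-Kelantan, 0.168 and 0.304 CPM in Holstein Friesian and 105 and 42.1 CPM in Brangus, with an edgeR adjusted p of 0.183, the second lowest of all genes. LOC107131247 was at 84.6 and 60.9 CPM against 11.6 and 5.06 CPM. The most abundant member, LOC528412, was not separated, at 227 and 212 CPM against 84.6 and 325 CPM. An immunoglobulin lambda light chain locus, LOC112441460, was at 66.7 and 72.9 CPM against 3.09 and 0.114 CPM, beside B and plasma cell markers that summed within the Holstein Friesian range.

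Natural killer cell receptors formed a family with many members above. Killer cell lectin-like receptors sit on natural killer cells and some T cells: KLRK1 (NKG2D) triggers killing on binding stress-induced ligands, while NKG2A pairs with KLRD1 (CD94) as an inhibitory receptor for nonclassical class I molecules. NKG2C, the activating relative of NKG2A, was at 9.01 and 9.2 CPM in Kedah-Kelantan, 0.839 and 0.228 CPM in Holstein Friesian and 0.642 and 0 CPM in Brangus. NKG2A was at 12.8 and 13.4, 2.48 and 0.912 and 1.84 and 1.89 CPM in the same order, a log2 fold change of 2.94 ± 0.56 (SE). Both receptors were low in all 4 libraries of the other breeds. Other loci with an NKG2-A/NKG2-B description were mixed. LOC132345339, LOC100336869 and LOC100140174 were above and LOC100847738 was below. LOC112446743 and LOC513869 lay between the Holstein Friesian libraries, and LOC104970137 overlapped otherwise. KLRK1 was at 34.9 and 30.8 against 9.13 and 6.35 CPM, and KLRD1, the CD94 chain, at 38.9 and 30.9 against 16.3 and 6.01 CPM. The lectin-like family as a whole was grouped after values had been seen. Of its 23 tested members 11 were above (47.8%, against 18.1% of all genes), 1 below and 9 between the Holstein Friesian libraries. The median log2 fold change was 0.78 against -0.03 for all genes. Against Holstein Friesian 1 alone 13 were above and 8 below, and against Holstein Friesian 2 alone 19 and 3. KLRA1, an Ly49 receptor, lay between at 16.8 and 20.5 against 74.3 and 4.07 CPM. Of 8 immunoglobulin-like receptors (KIR), also grouped after values had been seen, 4 were above and none below, where all genes had 18.1% and 12.6%. The widest gap was that of LOC132342884 at 9.59 and 9.88 against 1.81 and 0 CPM, while KIR3DS1 had a gap of only 0.018. With Holstein Friesian 1 alone 4 KIR were above and 3 below, where all genes had 46.7% and 39.1%. With Holstein Friesian 2 alone 6 were above and none below, where all genes had 45.0% and 40.9%.

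The ligands of KLRK1 tended to the opposite side. These are the UL16-binding proteins and MIC molecules, class I-like proteins shown by stressed or infected cells. This family, too, was grouped after values had been seen. Of 9 tested members 5 were below (55.6%, against 12.6% of all genes) and 1 above (11.1%, against 18.1%). The median log2 fold change was -1.51, against -0.03 for all genes. Against Holstein Friesian 1 and 2 alone 5 and 8 were below (55.6% and 88.9%, against 39.1% and 40.9% of all genes). Among the 5, LOC112445446 and LOC112441504 had narrow gaps of 0.033 and 0.256. ULBP13 was at 6.21 and 5.36 CPM in Kedah-Kelantan and 15.5 and 17.4 CPM in Holstein Friesian. ULBP3 was at 0.29 and 0.195 against 5.6 and 3.92 CPM, and LOC100336795, described as the same protein, had no reads in Kedah-Kelantan against 140 and 105 in Holstein Friesian. Only ULBP17 was above, at 2 and 2.08 against 0.336 and 1.52 CPM.

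A list of natural killer and cytotoxic lymphocyte markers had 12 of 30 tested members above (40.0%, against 18.1% of all genes) and 1 below. Against Holstein Friesian 1 alone 16 were above and 12 below (53.3% and 40.0%), near the 46.7% and 39.1% of all genes. Against Holstein Friesian 2 alone 25 and 5 were (83.3% and 16.7%, against 45.0% and 40.9%). The chemokine CCL5 was at 188 and 235 against 47.9 and 72.3 CPM and the activating receptor NCR1 (NKp46) at 43.3 and 38.3 against 9.97 and 17.6 CPM. ADGRG1, an adhesion receptor found on cytotoxic lymphocytes, was at 79.4 and 85.7 against 17.3 and 24.6 CPM. The killing proteins themselves were not separated: perforin PRF1 was at 126 and 149.7 against 137 and 54.4 CPM, granzyme GZMA at 73.3 and 64.2 against 176 and 28.4 CPM, and granulysin GNLY at 94.6 and 98.4 against 161 and 48.2 CPM. Summed over the 31 genes of the list, with CD160 at 0 in every library, the markers were at 1933 and 2062 CPM against 2294 and 1346 CPM. The sum in Kedah-Kelantan thus lay within the Holstein Friesian range, and the part of cell numbers in the receptor levels was not tested.

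**Figure D4:**
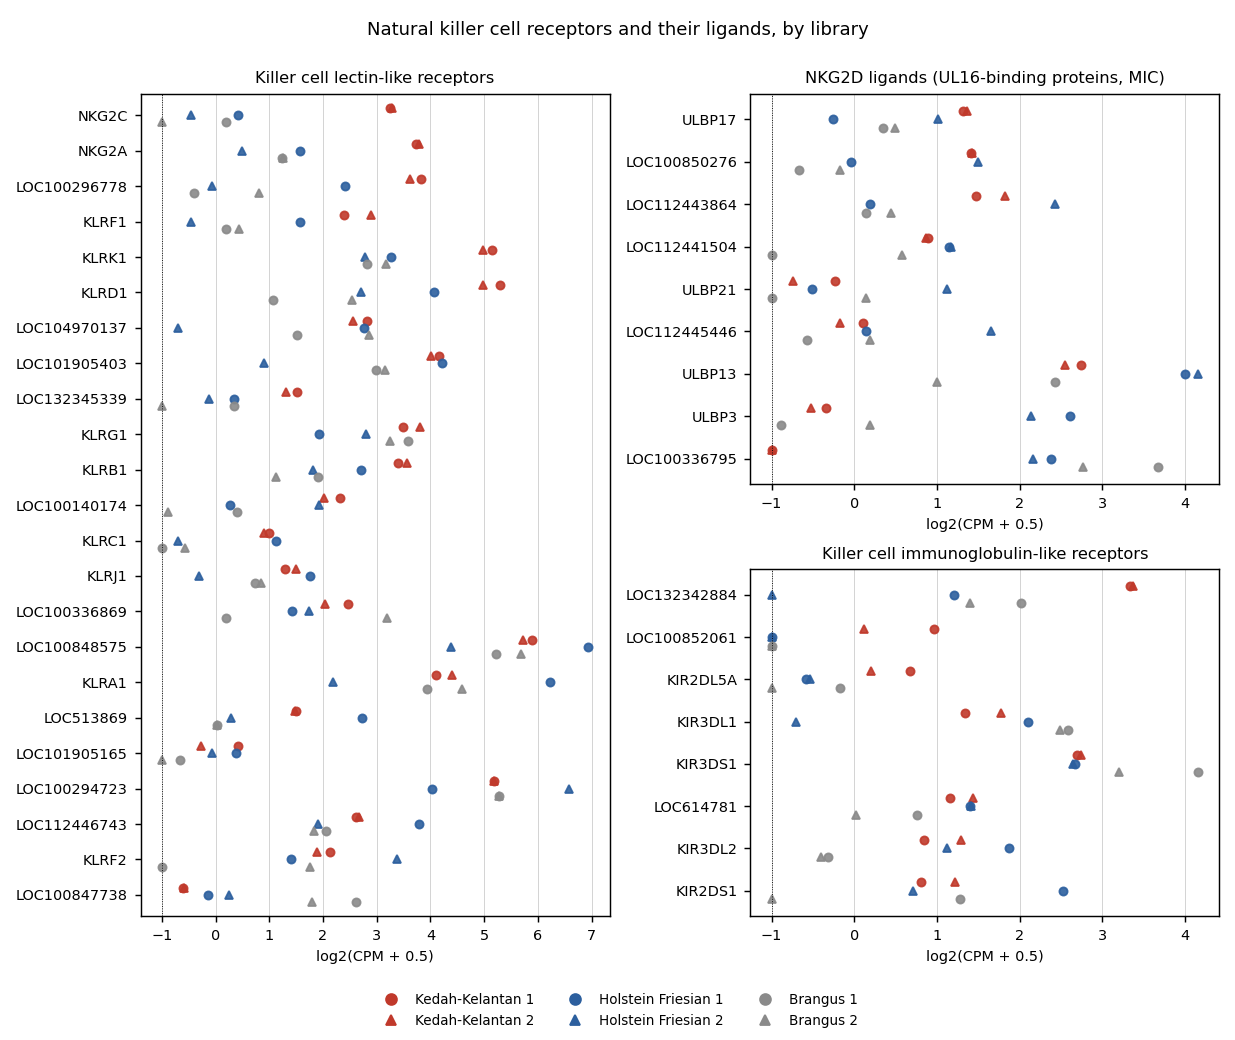
Levels on the log2(CPM + 0.5) scale in each library for tested members of 3 families, ordered by the difference between the breed means (symbols as in the plot of widest gaps; the dotted line marks 0 reads). Kedah-Kelantan points stand to the right for NKG2C, NKG2A and KLRK1 and to the left for ULBP13, ULBP3 and LOC100336795.

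Among the other genes with wide gaps above, ASIP was at 28.6 and 30.1 CPM in Kedah-Kelantan, 0.872 and 2.32 CPM in Holstein Friesian and 0.514 and 3.01 CPM in Brangus. ASIP, the agouti signalling protein (chromosome 13, 63639821 to 63668127), blocks the melanocortin 1 receptor and affects coat colour in mammals. Its log2 fold change was 4.20 ± 0.95 (SE), with an edgeR adjusted p of 0.995. A pair of neighbouring zinc finger genes on chromosome 15 was above as well: ZNF215 at 21.9 and 16.5 against 0.235 and 0.912 CPM and ZNF214 at 13.6 and 11.7 against 2.28 and 3.35 CPM. The start of ZNF215 lies at 45754524 and the end of ZNF214 at 45745688 in the deposited positions. Brangus had little of either, at 0.171 and 0 and 2.91 and 1.72 CPM. COL11A2, a fibrillar collagen chain encoded on chromosome 23 like the class II genes, was at 14.4 and 10.7 against 0.336 and 0.988 CPM. KCNMA1, the pore of a calcium-activated potassium channel, was at 9.3 and 10.4 against 0.839 and 0 CPM. BAIAP3, a regulator of vesicle fusion, was at 11.7 and 11.1 against 1.11 and 0.456 CPM, and RTKN at 9.46 and 10.6 against 0.336 and 1.18 CPM. Apart from ASIP and ZNF214, each was at 1.18 CPM or less in both Holstein Friesian libraries (RTKN highest).

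Among genes below, PTGR1 combined a wide gap with a high level. PTGR1 is a reductase that inactivates leukotriene B4, a lipid that attracts neutrophils. It was at 9.17 and 7.25 CPM in Kedah-Kelantan, 77.5 and 50.2 CPM in Holstein Friesian and 93.2 and 55.8 CPM in Brangus, a log2 fold change of -2.96 ± 0.37 (SE) with an edgeR adjusted p of 0.501. Both other breeds thus stood above Kedah-Kelantan. TTLL1, the catalytic subunit of the enzyme complex that adds glutamate chains to tubulin, was at 4.89 and 6.4 against 35.9 and 30.9 CPM. TPGS2, another subunit of that complex, was also below at 1.16 and 1.43 against 3.62 and 8.33 CPM. Of 13 tested members of the tubulin ligase family list 4 were above (30.8%, against 18.1% of all genes) and 2 below (15.4%, against 12.6%). Among the 4 was TTLL3, a tubulin glycylase, at 15.1 and 16.2 against 8.25 and 10.5 CPM. The plasma protease inhibitor A2M was at 36.1 and 34.6 against 116 and 355 CPM and the receptor NOTCH3 at 1.61 and 1.04 against 6.27 and 7.11 CPM. CRYGS, best known as a lens crystallin, was at 0.29 and 0.162 against 3.99 and 10.8 CPM and reached 30.7 and 11.9 CPM in Brangus. ZNF704 was at 0.354 and 0.357 against 4.5 and 5.93 CPM, FHAD1 at 2.41 and 1.14 against 10.6 and 9.16 CPM and CCDC150 at 0.193 and 0 against 4.4 and 1.75 CPM. SCLY, which recycles selenium from selenocysteine, was at 7.08 and 7.15 against 21.7 and 18.9 CPM, with 21.8 and 18.8 CPM in Brangus.

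Across the gene lists, those for cell division and cholesterol had the largest shares above. The list for DNA replication and mitosis had 24 of 35 tested members above (68.6%, against 18.1% of all genes), 1 below and 5 between the Holstein Friesian libraries. Its median log2 fold change was 0.34. Under total-count scaling 27 were above with a median of 0.49, where all genes had 28.6% above and a median of 0.12. Against Holstein Friesian 1 alone 28 were above and against Holstein Friesian 2 alone 29, where all genes had 46.7% and 45.0%. CENPE, a motor of the kinetochore, was at 7.66 and 6.76 against 4.03 and 4.22 CPM. BUB1B, of the spindle checkpoint, was at 8.59 and 8.97 against 4.63 and 5.59 CPM, and the S-phase transcription factor E2F1 at 5.89 and 5.98 against 4.3 and 3.08 CPM. TOP2A, which untangles DNA in dividing cells, was at 59.3 and 49.8 against 38.5 and 35.4 CPM and the replication helicase subunit MCM2 at 24.8 and 27.2 against 16.8 and 18.9 CPM. Each is a gap of less than 2-fold. Brangus was lower than Kedah-Kelantan for these 5 genes, with TOP2A at 22 and 25.7 CPM. Summed over the list, levels were 1558 and 1496 CPM in Kedah-Kelantan, 1331 and 1221 CPM in Holstein Friesian and 1209 and 1250.0 CPM in Brangus. The 2 Kedah-Kelantan sums were the highest.

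Cholesterol genes had a similar pattern. Cells take up cholesterol or build it from acetyl-CoA, and SREBF2 switches on most genes of the route when sterols are low. Of 27 tested genes 16 were above (59.3%, against 18.1% of all genes), 1 below (EBP) and 7 between. The median log2 fold change was 0.25. Under total-count scaling 18 were above, where all genes had 28.6% above. Against Holstein Friesian 1 alone 20 were above (74.1%, against 46.7% of all genes). Against Holstein Friesian 2 alone 21 were above (77.8%, against 45.0%). SREBF2 was at 339 and 327 CPM in Kedah-Kelantan and 187 and 248 CPM in Holstein Friesian. LSS, which closes the sterol rings, was at 46.8 and 40.9 against 21.1 and 23.4 CPM, with a log2 fold change of 0.98 ± 0.20 (SE) and an edgeR adjusted p of 0.947. ABCA1, which exports cholesterol, was at 67.2 and 59.4 against 41.3 and 29.8 CPM. List sums were 2312 and 2289.5 CPM against 1880.0 and 1768 CPM.

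Protein-degrading, class I and respiratory genes had some of the largest shares below with TMM scaling. The proteasome is the barrel that cuts tagged proteins into peptides, and immune cells exchange some of its subunits to make peptides for class I presentation. Of 49 tested proteasome genes 22 were below (44.9%, against 12.6% of all genes), 4 above and 12 between, with a median log2 fold change of -0.23. PSMB8, an immune-type catalytic subunit, was at 464 and 533 CPM in Kedah-Kelantan, 719.7 and 739 CPM in Holstein Friesian and 813 and 901 CPM in Brangus. PSME1 and PSME2, the paired subunits of the interferon-inducible activator, were at 203 and 228 against 299.1 and 307 CPM and 86.2 and 101 against 134 and 165 CPM. Under total-count scaling 7 were below and 7 above, and the list's median was -0.07, where all genes had 6.16% below and a median of 0.12. Against Holstein Friesian 1 alone 39 were below, and against Holstein Friesian 2 alone 27 (79.6% and 55.1%, against 39.1% and 40.9% of all genes).

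Nuclear genes of oxidative phosphorylation had 27 of 83 tested members below (32.5%, against 12.6% of all genes), 1 above and 23 between. Their median was -0.27. Under total-count scaling 6 were below and 2 above, beside 6.16% and 28.6% of all genes. NDUFA3 and NDUFB10, subunits of respiratory complex I, were at 14.6 and 17.7 against 27.4 and 22.9 and 71.7 and 82.9 against 116 and 98 CPM. The 13 genes for complex I, III, IV and V subunits carried by mitochondrial DNA stood otherwise. Of these, 6 were above (46.2%, against 18.1% of all genes) and none below, where all genes had 12.6% below. Against Holstein Friesian 1 alone 6 were above and 6 below (46.2% each, against 46.7% and 39.1% of all genes). All 13 were above Holstein Friesian 2 alone, against 45.0% of all genes. ND5 was at 1647 and 1666 against 1347 and 1094 CPM, ND2 at 1455 and 1666 against 1172 and 1194 CPM and ND1 at 1908 and 2142 against 1631 and 1688 CPM, all complex I subunits as well. The 13 together summed to 28267 and 32443 CPM in Kedah-Kelantan and 31127 and 24274 CPM in Holstein Friesian, ranges that overlap. Against Holstein Friesian 1 alone 73 nuclear genes were below and 2 above (88.0% and 2.4%, against 39.1% and 46.7% of all genes). Against Holstein Friesian 2 alone 30 and 27 were (36.1% and 32.5%, against 40.9% and 45.0%).

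Ribosomal and translation genes had few members above, and their position depended on 1 library. None of 85 cytosolic ribosomal protein genes was above, while 12 were below (14.1%, against 12.6% of all genes) and 40 between (47.1%, against 44.5%), with a median of -0.39. Under total-count scaling 3 were below, and with DESeq2 size factors 20. Against Holstein Friesian 1 alone 84 were below and 1 above, and against Holstein Friesian 2 alone 13 and 39. Their sum was 70321 and 79017 CPM in Kedah-Kelantan, 124338 and 72600.2 CPM in Holstein Friesian and 178242 and 182364 CPM in Brangus. Holstein Friesian 2 was inside the Kedah-Kelantan range, and Brangus was highest. RPL23A was at 443 and 479 against 1515 and 725 CPM and RPL3 at 903 and 1044 against 1606 and 1362 CPM. Mitochondrial ribosomal proteins had 17 of 78 below (21.8%) and 3 above, with 4 and 4 under total-count scaling. With Holstein Friesian 1 alone 67 were below and 3 above, but against Holstein Friesian 2 alone 19 were below and 47 above. Translation initiation and elongation factors had 16 of 62 below (25.8%) and 4 above, but 5 and 10 under total-count scaling. Their median of -0.10 became 0.05 under that scaling, below the all-gene median in both settings (-0.03 and 0.12).

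Fuel genes were mixed. In glycolysis 7 of 32 tested genes were below (21.9%, against 12.6% of all genes), 3 above (9.38%, against 18.1%) and 20 between. The direction turned with the library: against Holstein Friesian 1 alone 21 were above and 9 below, and against Holstein Friesian 2 alone 5 and 27. TPI1, which interconverts the triose phosphates, was at 98.2 and 109 against 184 and 193 CPM with 150.3 and 166 CPM in Brangus, a log2 fold change of -0.86 ± 0.16 (SE) and an edgeR adjusted p of 0.947. PDK1 and PDK2, kinases that inhibit pyruvate dehydrogenase, were above at 115 and 107 against 64 and 71 CPM and 24.5 and 25.3 against 13.2 and 21.2 CPM. In fatty acid oxidation 9 of 31 were above (29.03%) and 10 below (32.3%). CPT1C, the carnitine palmitoyltransferase known from neurons, was at 20.5 and 21.4 against 6.04 and 3.16 CPM. SLC25A20, the carrier that brings acylcarnitines into mitochondria, was below at 19.6 and 19.4 against 37.6 and 33.7 CPM, and the dehydrogenase ACAD10 above at 14.8 and 11.9 against 4.36 and 7.53 CPM. In purine and pyrimidine synthesis 3 of 26 were above (11.5%) and 5 below (19.2%), with PFAS at 34.6 and 31 against 20.7 and 15.4 CPM and the salvage enzyme APRT at 48.4 and 59.1 against 97.9 and 84.3 CPM.

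**Figure D5:**
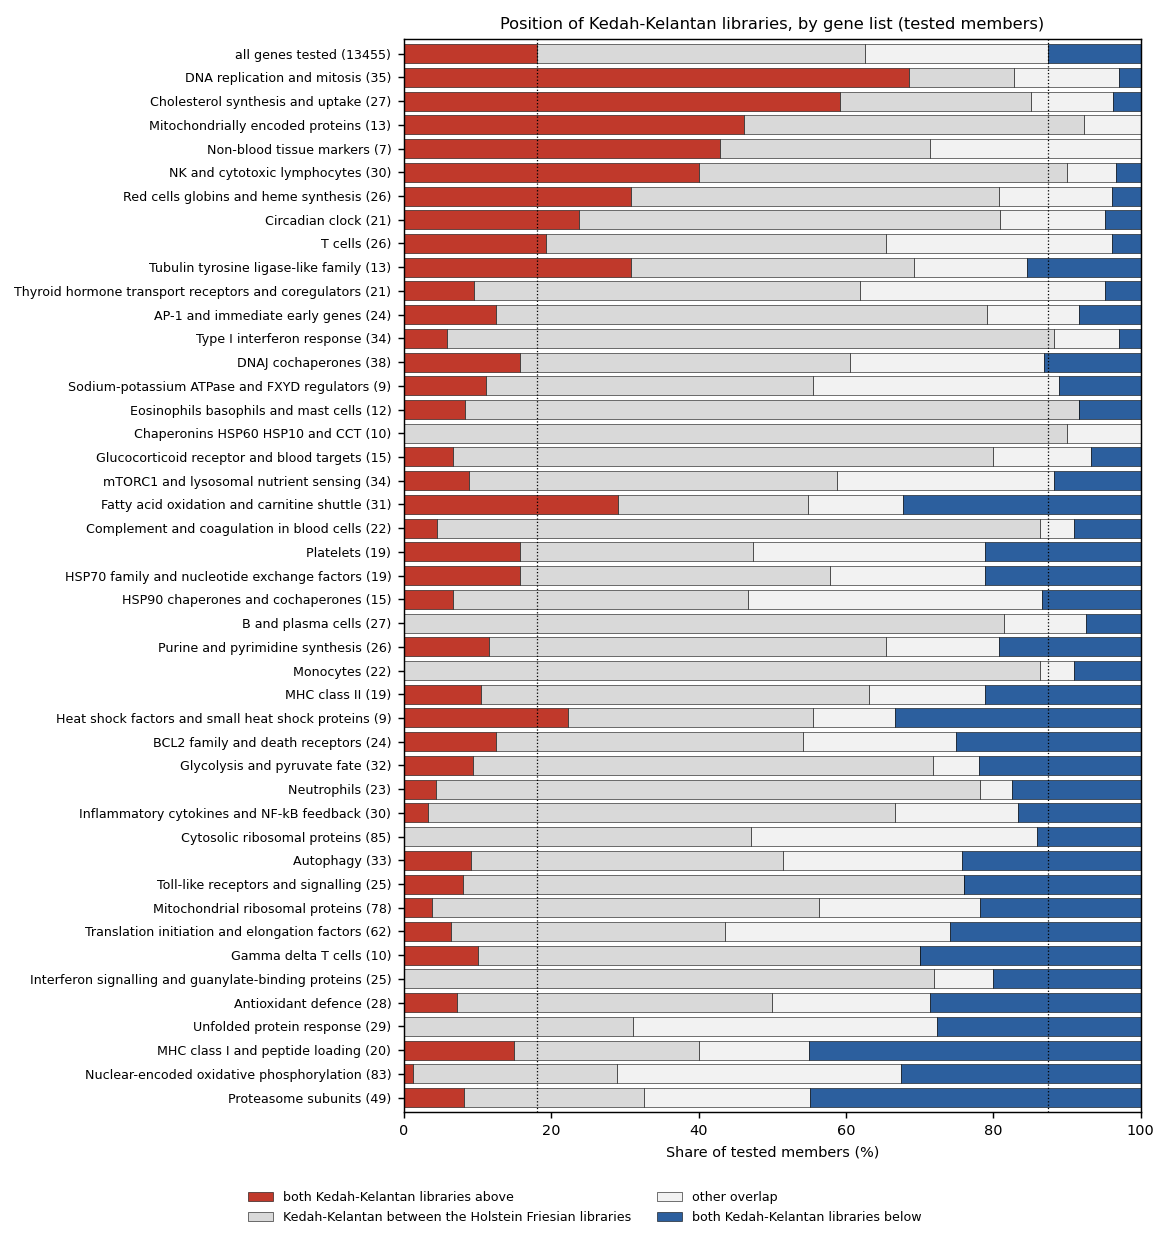
Share of tested members (number in brackets) of each gene list with both Kedah-Kelantan libraries above (red), between the Holstein Friesian libraries (grey), otherwise overlapping (pale) or below (blue). The first bar and the dotted lines give all 13455 genes, with 18.1% above and 12.6% below on TMM-scaled values; scaling by total counts alone moves the separated genes to 82.3% above.

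Heat shock and stress genes, which the series' theme brings to the fore, were mixed, and 69.3% of all tested genes had overlapping libraries. Heat shock proteins are chaperones that hold or refold proteins, induced by the factor HSF1 when proteins unfold. HSPA1A, the classic inducible HSP70, was at 151 and 166 CPM in Kedah-Kelantan and 111 and 208 CPM in Holstein Friesian, and HSF1 at 31.2 and 37.3 and 31.7 and 30.6 CPM. HSP90AA1, the inducible HSP90, was below at 699 and 706 against 811 and 845 CPM, with 1116 and 1049.9 CPM in Brangus. Its activator AHSA1 was below at 68.2 and 69.9 against 80.7 and 79.4 CPM. Under total-count scaling AHSA1 overlapped, and 1 member of the HSP90 list was below and 2 above. TRAP1, the mitochondrial HSP90, was above at 32.4 and 33.4 against 26.5 and 28.7 CPM. By list, 3 of 19 HSP70 genes were above and 4 below, 1 and 2 of 15 for HSP90, and 6 and 5 of 38 for DNAJ cochaperones, beside 18.1% and 12.6% of all genes. Heat shock factors and small heat shock proteins had 2 above and 3 below of 9, with a median of -0.50 that stayed at -0.30 under total-count scaling. None of 10 chaperonin genes was separated, with 9 between the Holstein Friesian libraries. The medians of the HSP70, HSP90, DNAJ and chaperonin lists lay between -0.15 and -0.03, and between 0.0029 and 0.12 under total-count scaling, which moved the median of all genes from -0.03 to 0.12.

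In the unfolded protein response of the endoplasmic reticulum 8 of 29 genes were below (27.6%, against 12.6% of all genes) and none above. Under total-count scaling 2 were below and 6 above, and the median of -0.14 became 0.0079, below the all-gene median of 0.12. In this list 10 were above and 10 below against Holstein Friesian 1 alone, and against Holstein Friesian 2 alone 2 and 23. PDIA3 and PDIA6, which form disulfide bonds in new proteins, were at 411 and 453 against 542 and 658 CPM and 112 and 129 against 180.5 and 155 CPM. Among antioxidant genes 8 of 28 were below (28.6%) and 2 above (7.14%, against 18.1% of all genes). PRDX5, a peroxide-reducing enzyme, was at 42.6 and 48.3 against 65.3 and 72.3 CPM, and HMOX1, which degrades heme, at 15.1 and 17 against 20.1 and 69 CPM. The immediate early genes FOS and EGR1 respond within minutes to many stimuli. Both were above, FOS at 54.5 and 70.4 against 4.13 and 37.3 CPM and EGR1 at 9.62 and 10.1 against 6.41 and 3.31 CPM. Of the 24 members of their list 3 were above (12.5%, against 18.1% of all genes) and 2 below (8.33%, against 12.6%). KLF9, a gene induced by both glucocorticoid and thyroid hormone, was below at 2.12 and 1.92 against 3.39 and 6.69 CPM.

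The title of the series names deiodinases, the selenium enzymes that activate or inactivate thyroid hormone. No read of DIO1 or DIO3 was counted in any library. DIO2 had 4 and 11 reads in Kedah-Kelantan, 10 and 138 in Holstein Friesian and 0 and 9 in Brangus, and was left out of the genes tested for low counts. The thyroid hormone receptors THRA and THRB were not separated, at 34.5 and 31.9 against 34.2 and 22.6 CPM and 1.48 and 0.942 against 0.738 and 3.65 CPM. Of 21 tested genes for thyroid hormone transport, reception and coregulation 2 were above (9.52%, against 18.1% of all genes) and 1 below (4.76%, against 12.6%). Those above were TBL1X, a corepressor subunit, at 30.5 and 25.3 against 24.5 and 23.8 CPM and TRIP11 at 83 and 75.2 against 70.0 and 73.3 CPM.

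Class I genes were often below. Of 20 tested genes for class I molecules and peptide loading 9 were below (45.0%, against 12.6% of all genes) and 3 above (15.0%, against 18.1%). The median was -0.34. Against Holstein Friesian 1 and 2 alone 9 and 17 were below (45.0% and 85.0%, against 39.1% and 40.9% of all genes). The class I entry BOLA was at 931 and 1105 against 1555 and 1701 CPM. Other class I entries were above: JSP.1 at 172 and 197 against 70.4 and 69.4 CPM and BOLA-NC1, a nonclassical gene, at 398 and 441 against 163 and 254 CPM. JSP.1 also parted the Brangus libraries, at 91.7 and 2967 CPM. Interferon genes were mainly between the Holstein Friesian libraries, in 28 of 34 cases for the type I response (82.4%, against 44.5% of all genes). OAS1Z, a sensor of double-stranded RNA, was above at 162 and 158 against 17.9 and 74.4 CPM.

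Guanylate-binding proteins, interferon-induced GTPases that attack intracellular pathogens, had 4 of 14 tested members below (28.6%, against 12.6% of all genes), 1 above and 6 between the Holstein Friesian libraries (42.9%, against 44.5%). LOC112445995, described as GBP7, was at 0 and 0.162 CPM in Kedah-Kelantan, 18.4 and 8.71 CPM in Holstein Friesian and 1.03 and 1.25 CPM in Brangus. GBP5 was at 12.1 and 8.87 against 25.4 and 36.6 CPM, and the most abundant named member GBP1 was between at 172 and 166 against 147 and 451 CPM. Both loci for very large interferon-induced GTPases were below: LOC101903126 at 47.9 and 40.7 against 206 and 312 CPM and LOC783920 at 183 and 138 against 295 and 620.1 CPM. CD55, which shields cells from complement, was above at 969 and 943 against 402 and 587 CPM, with 769.6 and 765 CPM in Brangus. The cytokine IL10 was below at 1.77 and 1.72 against 11 and 3.95 CPM.

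In most of the other cell type lists the breeds overlapped. Kedah-Kelantan lay between the Holstein Friesian libraries for 19 of 22 monocyte, 17 of 23 neutrophil and 22 of 27 B and plasma cell genes. These shares were 86.4%, 73.9% and 81.5%, against 44.5% of all genes. T cell genes had 5 of 26 above (19.2%, near the 18.1% of all genes) and 1 below, with CD8B at 44.9 and 52.9 against 35.5 and 18.4 CPM. The T cell sum was nonetheless below, at 4536 and 4884 CPM against 5093 and 5343 CPM. Of 10 gamma delta T cell genes 1 was above, 3 below and 6 between. WC1-12 was below at 5.5 and 3.83 against 17.7 and 7.83 CPM and CD163L1 at 9.4 and 8.9 against 30.6 and 13 CPM. LOC100336869, a list member described as an NKG2-A/NKG2-B protein, was above at 5.02 and 3.61 against 2.18 and 2.85 CPM, and the list sum of 144 and 151 CPM lay within the Holstein Friesian range of 127 to 384 CPM. The platelet chemokines PF4 and PPBP went opposite ways: PF4 was below at 104 and 138 against 258 and 276 CPM and PPBP above at 32.6 and 34.5 against 17.5 and 19.1 CPM. Both were highest in Brangus, at 709 and 687 and 101 and 158 CPM. Among red cell and heme genes 8 of 26 were above (30.8%, against 18.1% of all genes) and 1 below (3.85%, against 12.6%). The 8 included the heme synthesis enzymes CPOX at 22.7 and 20.9 against 13.4 and 13.2 CPM and UROS at 15.9 and 13.9 against 5.81 and 8.33 CPM. Of 28 markers of other tissues 10 had no reads at all, among them ALB and KRT5, and the list summed to between 28 and 82.2 CPM over the 4 libraries.

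Brangus, whose libraries took no part in the rule, did not side with 1 breed throughout. Of the 131 genes above by at least 2-fold, both Brangus libraries were nearer Holstein Friesian for 62 (47.3%), nearer Kedah-Kelantan for 38 (29.01%) and divided for 31. Of the 55 genes below by at least 2-fold the numbers were 19 (34.5%), 18 (32.7%) and 18. Brangus resembled Kedah-Kelantan for RRAGA and its copy LOC539009, and Holstein Friesian for ASIP, ZNF215, NKG2A, KLRK1 and PTGR1.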

How the data were processed

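Whole-blood RNA of 3 breeds was sequenced with 2 libraries each. The authors deposited whole-number read counts per gene and FPKM values. Per the submitters' processing notes the tools were HISAT2 2.2.1, featureCounts 2.0.1, Trimmomatic 0.39, DESeq2 1.38.0 and FastQC 0.11.9, on build ARS-UCD1.2, with settings not given in the sources used here. FPKM, as deposited by the authors, served only as an alternative. Positions are those of the deposited table. Some of its loci lie on a sequence that the named build does not hold, so no other coordinates were used.

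Counts were fitted in edgeR 4.0.16 (quasi-likelihood, robust) on all 6 libraries with breed as the only term, TMM scaling and filterByExpr, which left 13455 genes, with Benjamini-Hochberg adjustment over all of them. The replicate numbers carry no stated pairing. CPM is the count divided by the TMM library size, and gaps used log2(CPM + 0.5). Alternatives were DESeq2 1.42.0, limma 3.58.1 on log2(FPKM + 0.1), other filters and scalings, a replicate block and leaving out each library. Intervals and floors (3 reads for a count of 0) cover counting error only.

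Genes named were the 10 with the widest gap in each direction (over all symbols, and over symbols not starting with LOC) at a mean log2 CPM of at least 1, each gene edgeR called, up to 3 members of each of 44 lists by gap, the genes that copies are described as, and HSPA1A, HSP90AA1, HSF1, THRA, THRB, DIO2, HBA and HBB. Near-absent genes, the 10 families grouped by description, and other genes named (such as BOLA-DRA, CIITA, PRF1, GZMA, GNLY, TOP2A, MCM2, ZNF214, SCLY and ADGRG1) were chosen after their values were seen. The comparison and the lists were chosen with earlier results of these data known. Results for some genes are not reported here.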

Additional observations from a re-analysis of the deposited data

How the results depend on the processing

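The single edgeR call became 0 with a mean count of at least 50, 0 with only the 4 libraries of both breeds and 0 with the replicate block, and DESeq2 called 130 genes. Leaving out 1 library gave 0 to 2464 calls. Deviations of equal replicate numbers correlated at -0.01 between Kedah-Kelantan and Holstein Friesian over 9112 genes. They correlated at 0.06 between Kedah-Kelantan and Brangus and at 0.20 between Brangus and Holstein Friesian. With 1 replicate difference per breed, these values cannot decide whether the libraries were paired. Genes above numbered 3853 with total counts, 3783 with the authors' FPKM and 3321 to 6279 without 1 library, and genes below 829, 819 and 2493 to 5497. Genes above by at least 2-fold numbered 81 with a mean count of at least 50, 76 with FPKM and 190 to 1167 without 1 library, and genes below by at least 2-fold 28 with FPKM and 76 to 1135 without 1 library. The cause of these shifts was not tested. Fewer libraries leave fewer ways to overlap, so counts without 1 library are not on the same footing as those with all. In the fits, a breed left with 1 library was assumed to vary like the others. A count of 0 allows up to 0.0965 to 0.129 CPM by library, so lower levels could not be seen at this depth. Of 2320 fits of 155 named genes, 26 in 7 genes reversed. Most named genes were chosen for libraries that do not overlap, which leaves their sign little room to turn. The small number of reversals is therefore no measure of robustness. All 7 genes were named as the gene of a copy or whatever their values. The log2 fold change of SNX5 moved to 0.10 (total counts) and 0.17 (limma), and ran from -0.412 to 0.40 without 1 library. GOLPH3 moved to 0.0212 (total counts) and 0.0219 (limma). HSPA1A moved to 0.0388 (replicate block), 0.17 (total counts) and 0.22 (limma), and ran from -0.39 to 0.47 without 1 library. Without 1 library THRA ran from -0.0848 to 0.557 and THRB from -1.59 to 0.67, each reversed only without Holstein Friesian 2. HBA moved to 0.14 (replicate block), 0.0939 (total counts) and 0.83 (limma), and ran from -1.12 to 3.75 without 1 library. HBB moved to -0.0285 (size factors), -0.0298 (no filter), -0.0351 (mean count of at least 50) and -0.0286 (DESeq2), and ran from -0.49 to 0.734 without 1 library. Of 88 list counts, 7 moved by over 1.5 times with size factors, 43 with total counts, 0 without globin genes, 70 without Holstein Friesian 1 and 65 without Holstein Friesian 2.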

Other observations

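Motor and adhesion receptor families, grouped after values had been seen, also had members above. Kinesins, the motors that walk along microtubules, had 16 of 40 tested members above (40.0%, against 18.1% of all genes), 1 below and 12 between the Holstein Friesian libraries, with a median log2 fold change of 0.29 against -0.03 for all genes. The family includes mitotic motors such as KIF2C, at 4.73 and 4.45 CPM in Kedah-Kelantan against 2.05 and 2.78 CPM in Holstein Friesian, and transport motors such as KIF3B, at 69.5 and 58.1 CPM against 49.2 and 40 CPM. Adhesion G protein-coupled receptors had 7 of 18 above (38.9%) and 1 below, but 8 above and 9 below against Holstein Friesian 2 alone. LOC518134, described as ADGRE4, was at 113 and 126 CPM in Kedah-Kelantan, 1.51 and 376 CPM in Holstein Friesian and 4.92 and 1.55 CPM in Brangus.

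Helicases had 24 of 84 tested members above (28.6%, against 18.1% of all genes) and 8 below (9.5%, against 12.6%), with a median of 0.10. Against Holstein Friesian 1 alone 46.4% were above and 35.7% below, near the 46.7% and 39.1% of all genes. Against Holstein Friesian 2 alone 59.5% and 23.8% were, against 45.0% and 40.9%. Over the nuclear chromosomes, the share of tested genes above ran from 14.3% on chromosome 27 to 24.2% on chromosome 20, and the share below from 9.8% on chromosome 6 to 18.7% on chromosome 21. IL32 was not separated, with 141 and 181 reads in Kedah-Kelantan, 0 and 1841 in Holstein Friesian and 5204 and 4095 in Brangus. No explanation of these values was tested.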
